A study of Mus musculus with 9 samples.

Results

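Nrk, Arxes1, Rps6ka6 and Fabp7 are 4 genes whose array signal in mouse liver stroma was high before birth and low after it. They were chosen by the measured difference between E15.5 and the later stages, where they show some of the largest falls, so their decrease from E15.5 is given as a description, with no test. They are 4 of the 19938 genes measured, and each is read by 1 probe set. The RNA came from cells sorted from livers of C57BL/6 mice of the genotype Cxcl12DsRed/+, in which a red fluorescent reporter is read from 1 Cxcl12 allele. The groups were embryonic day E15.5, postnatal day P5 and postnatal day P10, with 3 arrays each. All 9 samples carried the reporter allele, and the labels name no treatment. The sorted cells were positive for DsRed and lacked CD45 and Ter119, surface markers of blood cells. The labels do not say whether an array came from 1 animal or a pool, so p-values measure the spread between arrays, which may be technical. The stages address how this stroma differs between the fetal liver, a site of blood formation, and the liver after birth.

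Nrk and Rps6ka6 encode protein kinases. NRK belongs to the germinal centre kinase family, whose members act on the JNK pathway, and in the mouse it is known from the placenta, which overgrows when the gene is lost. RPS6KA6, also called RSK4, belongs to the ribosomal S6 kinases, which act below ERK in growth factor signalling. Arxes1 and its neighbour Arxes2 are rodent genes that arose from a copy of the signal peptidase gene Spcs3, and they are known as targets of the nuclear receptor PPARG in fat cells. Fabp7 encodes the brain lipid-binding protein, a fatty acid carrier of radial glia, where it is known as a target of Notch signalling.

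All 4 genes matched promoter windows of RefSeq on the mouse build GRCm38.p6, which run from 250 bases before to 50 bases after an annotated start. Rps6ka6 has 2 such windows. They are shown because genes that fell together may be compared by their starts, and because the window of Arxes1 is also that of another gene. Capitals mark matches on either strand to the TATA box TATAAA, the CCAAT box CCAAT, the GC box GGGCGG or the RBPJ core TGGGAA. In the first Rps6ka6 window the TATAAA and CCAAT matches overlap by 1 base. The windows lie at chrX:138914180-138914479 on the plus strand for Nrk, at chrX:136033117-136033416 on the plus strand for Arxes1, at chrX:111537910-111538209 and chrX:111463448-111463747 on the minus strand for Rps6ka6, and at chr10:57784673-57784972 on the plus strand for Fabp7.
Nrk: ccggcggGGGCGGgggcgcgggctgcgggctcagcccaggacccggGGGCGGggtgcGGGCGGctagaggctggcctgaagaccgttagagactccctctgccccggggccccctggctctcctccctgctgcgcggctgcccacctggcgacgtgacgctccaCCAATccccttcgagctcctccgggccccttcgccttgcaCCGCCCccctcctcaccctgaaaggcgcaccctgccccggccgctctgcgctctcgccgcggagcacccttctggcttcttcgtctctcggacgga
Arxes1: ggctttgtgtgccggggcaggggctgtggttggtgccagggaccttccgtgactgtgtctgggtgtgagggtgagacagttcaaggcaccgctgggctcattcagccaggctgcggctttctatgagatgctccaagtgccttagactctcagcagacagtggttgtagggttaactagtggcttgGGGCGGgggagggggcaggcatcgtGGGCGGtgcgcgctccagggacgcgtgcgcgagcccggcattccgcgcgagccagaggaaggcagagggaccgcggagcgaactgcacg
Rps6ka6, start at the 5′ end of the gene: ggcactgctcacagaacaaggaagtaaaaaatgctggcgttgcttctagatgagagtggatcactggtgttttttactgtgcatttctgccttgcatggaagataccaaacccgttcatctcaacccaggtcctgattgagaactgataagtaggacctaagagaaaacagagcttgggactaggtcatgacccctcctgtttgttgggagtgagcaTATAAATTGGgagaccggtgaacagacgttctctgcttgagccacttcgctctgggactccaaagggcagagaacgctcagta
Rps6ka6, internal start: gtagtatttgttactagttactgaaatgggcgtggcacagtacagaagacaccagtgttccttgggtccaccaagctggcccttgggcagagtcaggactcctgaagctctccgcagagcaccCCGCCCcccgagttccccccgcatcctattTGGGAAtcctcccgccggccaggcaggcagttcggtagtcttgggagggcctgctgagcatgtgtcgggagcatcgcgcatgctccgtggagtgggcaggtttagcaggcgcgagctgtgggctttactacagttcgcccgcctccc
Fabp7: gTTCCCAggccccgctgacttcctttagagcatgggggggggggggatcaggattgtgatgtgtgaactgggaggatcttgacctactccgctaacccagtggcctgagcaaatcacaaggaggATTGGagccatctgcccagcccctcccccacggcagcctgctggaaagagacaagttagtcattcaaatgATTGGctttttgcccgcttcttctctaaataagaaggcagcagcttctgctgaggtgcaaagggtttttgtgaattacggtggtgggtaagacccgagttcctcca

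The windows had little in common. That of Nrk held 31 CpG dinucleotides and 74.7% G and C, and that of Arxes1 held 21 and 65.0%. The 5′ window of Rps6ka6 and the window of Fabp7 held 6 CpG each, against a median of 7 over 32851 windows of all genes, and the internal window of Rps6ka6 held 16. A TATAAA match was found in the 5′ window of Rps6ka6, and 13.6% of all windows hold one. GGGCGG was found in the windows of Nrk (4 matches), Arxes1 (2) and the internal start of Rps6ka6 (1), and 35.7% of all windows hold it. CCAAT, held by 37.4% of all windows, was found for Nrk, the 5′ start of Rps6ka6 and Fabp7. TGGGAA, the core of the site bound by the Notch effector RBPJ, was found for Fabp7 and the internal start of Rps6ka6, and 25.6% of all windows hold it. A direct repeat of AGGTCA spaced by 1 base, the form bound by PPARG with its partner, is held by 0.0396% of windows and was in no window shown. These matches describe letters and not bound sites, and no binding was measured here.

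Arrays of 1 stage correlated at r = 0.983 to 0.993 over all probe sets, as a description, and arrays of different stages at 0.901 to 0.985. The number of arrays limits the precision of every value. In the order E15.5, P5, P10, the mean log2 signal of Cxcl12, the gene of the sort, was 10.98, 10.17 and 10.13, and that of Ptprc, which encodes CD45, was 5.05, 5.11 and 5.10. Lrat, whose enzyme makes the retinyl esters of hepatic stellate cells, stood at 10.68, 8.24 and 7.72. The signal of Alb, which hepatocytes express most, was 13.14, 13.20 and 13.13, so RNA of hepatocytes was measured at each stage. The Y-linked gene Eif2s3y was high on E15.5 array 3, P5 arrays 2 and 3 and P10 array 1 (7.94 to 9.24). It was low on the other 5 arrays (3.96 to 4.14), so the arrays differed in Y-linked signal. On E15.5 array 3 Xist, the RNA of the inactive X in female cells, was high as well (10.16). That array carried both signals, so the Y-linked signal does not split the arrays cleanly by sex. In such sorted samples, fewer cells of a type and less RNA per cell cannot be told apart.

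Nrk had the largest fall of all genes in the mean of the postnatal stages and at P10, while at P5 Sema3a had a larger one (-5.27, 38.6-fold lower). Arrays 1, 2 and 3 of E15.5 gave it log2 signals of 11.29, 11.06 and 11.34, those of P5 gave 6.47, 6.39 and 6.03, and those of P10 gave 5.17, 5.21 and 5.23. The stages followed each other downward without overlap. The means were 11.23 ± 0.15 (SD, n = 3), 6.30 ± 0.23 and 5.20 ± 0.033. The difference from E15.5 was -4.93 ± 0.12 on the log2 scale at P5 (SE of the limma model, 30.5-fold lower) and -6.02 ± 0.12 at P10 (65.0-fold lower). At P5 Nrk stood between percentiles 37.4 and 44.0 of the genes of its array, and at P10 between 20.0 and 21.7.

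**Figure D1:**
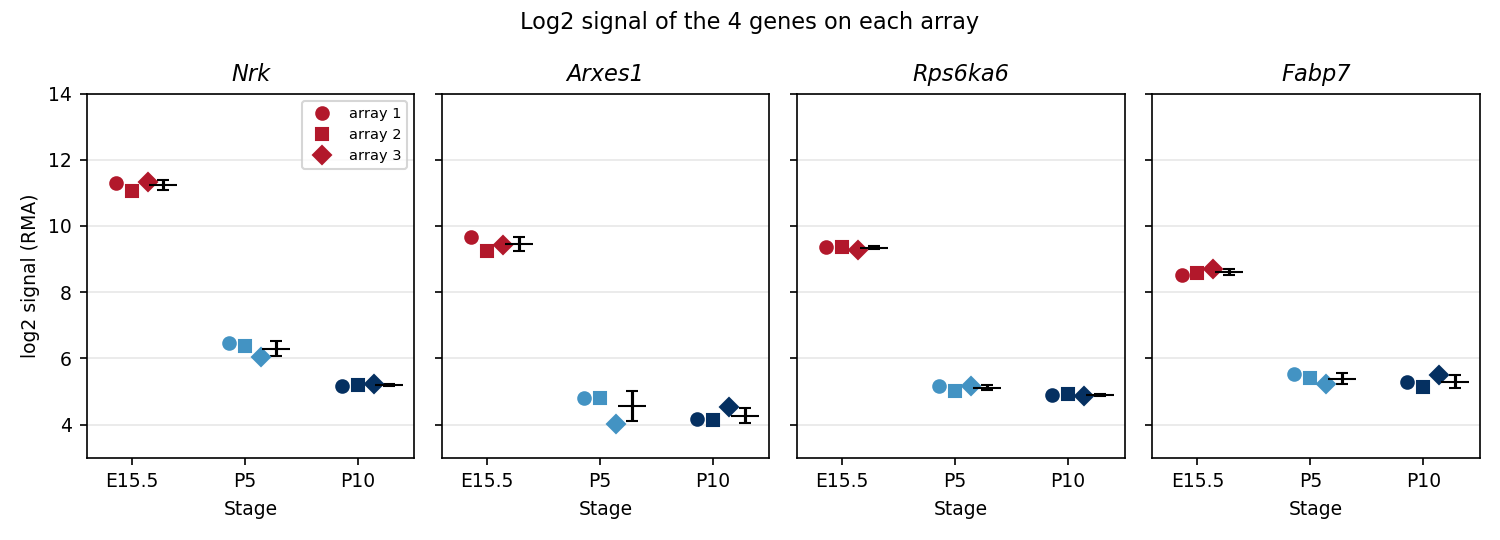
Log2 signal (vertical axis) of Nrk, Arxes1, Rps6ka6 and Fabp7 on each of the 9 arrays by stage (horizontal axis). Symbols are arrays 1, 2 and 3 of a stage, and the black mark beside them is the mean with the SD. All E15.5 arrays lie far above all postnatal arrays, and P5 and P10 are apart for Nrk.

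Rps6ka6, the other kinase, dropped to nearly the same level at both postnatal stages. Its log2 signal was 9.38, 9.37 and 9.29 at E15.5, 5.17, 5.02 and 5.17 at P5, and 4.90, 4.94 and 4.87 at P10. The 3 groups did not overlap. The difference from E15.5 was -4.22 ± 0.062 at P5 (18.7-fold lower) and -4.44 ± 0.062 at P10 (21.7-fold lower). P5 arrays 1 and 3 had the same value, so the spread at P5 rests on fewer distinct values than arrays.

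Arxes1 ended near the bottom of the scale, between percentiles 1.42 and 13.5 of the genes of its array at P5. It had 9.67, 9.25 and 9.42 at E15.5, 4.82, 4.82 and 4.03 at P5, and 4.17, 4.13 and 4.53 at P10. The E15.5 arrays stood 4.43 above the highest postnatal array, while P5 and P10 overlapped, with P5 array 3 the lowest of all. The difference from E15.5 was -4.89 ± 0.23 at P5 (29.6-fold lower) and -5.17 ± 0.23 at P10 (36.0-fold lower).

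Fabp7 had the smallest fall of the 4 genes. It had 8.52, 8.58 and 8.70 at E15.5, 5.54, 5.40 and 5.22 at P5, and 5.28, 5.13 and 5.50 at P10. The E15.5 arrays stood 2.98 above the highest postnatal array, and P5 and P10 overlapped. The difference from E15.5 was -3.21 ± 0.11 at P5 (9.27-fold lower) and -3.30 ± 0.11 at P10 (9.82-fold lower).

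In the order of the decrease from E15.5 to the mean of the postnatal stages, Nrk was rank 1 of 19938 genes (-5.48), Arxes1 rank 3 (-5.03), Rps6ka6 rank 9 (-4.33) and Fabp7 rank 57 (-3.25). Sema3a, a repulsive cue for axons, came between Nrk and Arxes1 (-5.38). Smarca1, the gene of a chromatin remodelling ATPase, followed Arxes1 (-4.83). Rps6ka6 lay between Lpar4, a receptor gene for lysophosphatidic acid (-4.42), and the nuclear receptor gene Nr1h5 (-4.24). Fabp7 lay between the adhesion receptor gene Adgrg6 (-3.26) and Pdgfra, a growth factor receptor gene of mesenchyme (-3.24). Fabp7 therefore had many genes with equal or larger falls ahead of it. The E15.5 arrays lay wholly above those of P5 and those of P10 for all 4 genes. Over all genes this held for 21.1% at P5 and 23.8% at P10, while limma called 35.6% of all genes at P5 and 38.7% at P10 in either direction. Nothing is read from the 4, since these contrasts chose them.

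The files hold no detection calls, so whether the 4 RNAs were absent after birth was not measured. All 6 postnatal arrays of Arxes1, Rps6ka6 and Fabp7, and the 3 P10 arrays of Nrk, lay under percentile 30 of the genes of their array (5.64 to 5.74 on the log2 scale). Falls that end so low may be understated. The P5 arrays of Nrk lay above that mark, so its signal was low rather than at the bottom of the scale at P5. E15.5 is the only fetal day, so the data do not show when before P5 the signal dropped.

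The rule named falls after E15.5 and not the step from P5 to P10, so that step was tested, though on postnatal arrays that also entered the rule. Of the 4 genes, 1 passed, Nrk, where limma called 2.89% of all genes lower and 2.76% higher at P10 than at P5, or 5.65% in all. Nrk differed by -1.09 ± 0.12 (2.13-fold lower, n = 3 per stage, limma adjusted p = 0.00245), and its 3 P10 arrays lay below its 3 P5 arrays. Rps6ka6 differed by -0.22 ± 0.062 and did not pass (limma adjusted p = 0.0891, 95% interval -0.36 to -0.08), though its postnatal groups did not overlap, as was the case for 9.66% of all genes lower at P10. Arxes1 (-0.28, interval -0.80 to 0.24, limma adjusted p = 0.618) and Fabp7 (-0.08, interval -0.35 to 0.18, limma adjusted p = 0.809) did not pass. Of the log2 decrease of Nrk seen at P10, 81.9% had taken place by P5. The P10 arrays of Nrk also lay under percentile 30, so its P10 fall may be understated and this share overstated. No such share is given for Arxes1, Rps6ka6 and Fabp7, whose signals were under percentile 30 on all 6 postnatal arrays. Whether the postnatal step differed between genes was not tested. On the 5 arrays without the Y-linked signal, 1 of them at P5, the step of Nrk was -1.25 ± 0.12 and did not pass (limma adjusted p = 0.0757), and calls over all genes went from 1126 to 19.

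**Figure D2:**
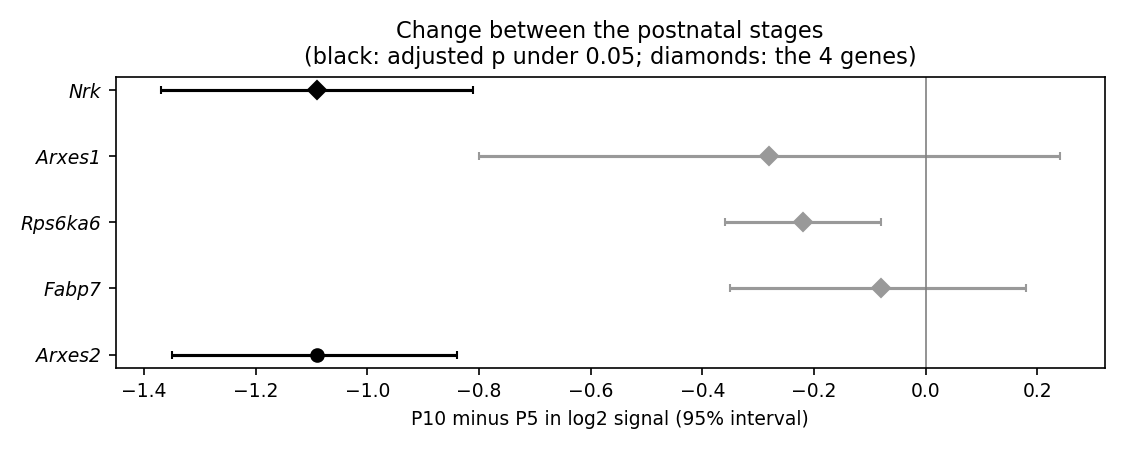
P10 minus P5 in log2 signal (horizontal axis) with its 95% interval for the 4 genes (diamonds) and Arxes2 (circle). Black marks passed the test, grey marks did not, and Nrk and Arxes2 both lie at -1.09, while the intervals of Arxes1 and Fabp7 span 0.

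Arxes1 and Arxes2 are next to each other on the X chromosome, with 0 annotated genes between them, and their promoter windows differed at 0 of 300 bases. Of all windows, 1.58% are identical to that of another gene. The window of Arxes2 lies at chrX:135993570-135993869 on the plus strand. Arxes2 had log2 signals of 10.95, 11.00 and 11.16 at E15.5, 7.34, 7.25 and 7.51 at P5, and 6.13, 6.21 and 6.49 at P10. Its stages followed each other downward without overlap, as those of Nrk did. Arxes2 fell by 3.67 ± 0.11 at P5 (limma adjusted p = 1.33e-07) and by 4.76 ± 0.11 at P10 (adjusted p = 2.57e-08, 27.1-fold lower). From P5 to P10 it fell by 1.09 ± 0.11 (limma adjusted p = 0.00166), where Arxes1, already near the lowest values of the scale at P5, differed by -0.28 ± 0.23. That step of Arxes2 was -0.99 on the 5 arrays without the Y-linked signal and did not pass there (adjusted p = 0.0900). Whether probes of either gene also bind RNA of the other was not tested.

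The parent gene and its partners moved far less. Spcs3, a subunit of the signal peptidase that cuts signal peptides from secreted proteins, fell by 0.81 ± 0.12 at P5 and by 0.76 ± 0.12 at P10 (limma adjusted p = 0.000727 and 0.000871). Sec11a, a catalytic subunit, fell, with differences of -1.18 ± 0.061 and -1.50 ± 0.061, and Sec11c, the other catalytic subunit, rose at P10 by 0.65 ± 0.083 (limma adjusted p = 0.000294). Of the 6 relatives and signal peptidase genes measured, Arxes2 included, 5 were called lower and 0 higher at P5, and 5 lower and 1 higher at P10. Their median differences were -0.60 and -0.64. Over all genes, 17.7% were called lower at P5 and 18.6% at P10, with medians of 0.03 and 0.02. Spcs1 and Spcs2, accessory subunits, were lower by a small amount at P5, near the threshold. Spcs1 (-0.23) was at -0.21 without E15.5 array 2 (limma adjusted p = 0.0503). Spcs2 (-0.38) was at -0.34 without E15.5 array 1 and at -0.35 without P5 array 1 (limma adjusted p = 0.0557 and 0.0508).

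PPARG is known to drive the Arxes genes in fat cells, and its own gene moved the opposite way. Pparg had log2 signals of 6.40, 6.45 and 6.30 at E15.5, 9.89, 10.01 and 9.87 at P5, and between 9.98 and 10.04 on the 3 P10 arrays. The E15.5 arrays lay below all others. Pparg rose by 3.55 ± 0.063 at P5 and by 3.62 ± 0.063 at P10 (limma adjusted p = 1.04e-08 and 7.43e-09). Cebpa, a partner of PPARG in adipogenesis, rose by 2.15 ± 0.066 and 2.08 ± 0.066, and the lipase gene Pnpla2 by 2.34 ± 0.17 and 2.67 ± 0.17. Dlk1, which encodes an inhibitor of fat cell formation, fell by 2.83 ± 0.14 and 4.67 ± 0.14, and Zfp423, a preadipocyte factor, by 1.04 ± 0.15 and 1.56 ± 0.15. Of 18 adipogenic and PPARG genes, 3 were called lower and 8 higher at P5, and 4 lower and 7 higher at P10. Their median differences were 0.20 and 0.07. Among all genes, 17.7% were called lower and 17.9% higher at P5, and 18.6% and 20.1% at P10, so the shares called lower were close. Hepatocytes express Pparg, Cebpa and Pnpla2 too. Of 17 hepatocyte genes on the same arrays, 12 were called higher and 1 lower at P5, and 8 higher and 3 lower at P10. Their median differences were 0.38 and 0.15, far below the rise of Pparg. Single genes ranged from -0.44 to 7.17 at P5 and from -2.58 to 7.11 at P10. Among those that rose at P5, Cyp2e1, a drug-metabolising enzyme gene, rose by 7.17 ± 0.084. Tat and Pck1, genes of amino acid breakdown and glucose synthesis, rose by 5.98 ± 0.12 and 5.64 ± 0.14. These 3 rose more than Pparg, unlike the list's median. The list's summed linear signal ran from 72400 to 76600 at E15.5, from 107000 to 112000 at P5 and from 93000 to 107000 at P10. The part of hepatocytes in the rise of Pparg was not tested.

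**Figure D3:**
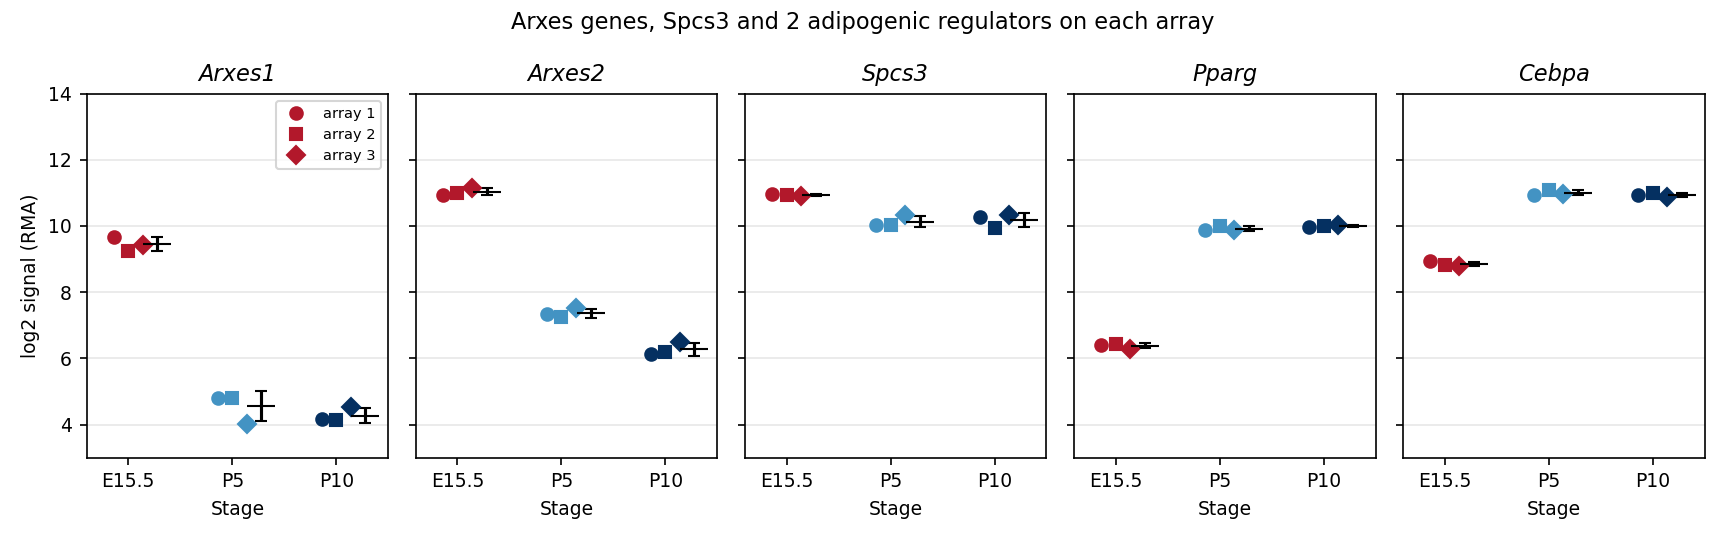
Log2 signal (vertical axis) of Arxes1, Arxes2, Spcs3, Pparg and Cebpa on each array by stage (horizontal axis), with the mean and SD in black beside the 3 arrays. Arxes1 and Arxes2 drop after E15.5, Spcs3 drops by less than 1, and Pparg and Cebpa are higher after birth.

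The closest kinases of NRK fell less or did not pass. Map4k4 fell by 1.05 ± 0.13 at P5 and 1.48 ± 0.13 at P10 (limma adjusted p = 0.000308 and 2.92e-05), and Tnik by 1.04 ± 0.080 and 1.10 ± 0.080 (adjusted p = 1.94e-05 and 9.37e-06). Mink1, the remaining kinase of that group, differed by -0.03 ± 0.091 and 0.07 ± 0.091 and did not pass (limma adjusted p = 0.841 and 0.582). In the JNK cascade Map3k1 and Jun fell at both stages, and Map2k4, an activator of JNK, rose by 0.63 ± 0.13 and 0.77 ± 0.13. Of 11 genes of the NRK family and JNK cascade measured, 6 were called lower and 1 higher at P5, and 5 lower and 2 higher at P10, with medians of -0.49 and -0.22. Over all genes, limma called 17.7% lower and 17.9% higher at P5, and 18.6% and 20.1% at P10. Among them the P5 call of Mapk9 (-0.53), a JNK gene, did not hold without E15.5 array 1 (-0.47, limma adjusted p = 0.0540).

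Relatives of RSK4 also fell. Rps6ka3, which encodes RSK2 and lies on the X chromosome too, had log2 signals of 8.86, 8.68 and 8.89 at E15.5, 7.13, 7.82 and 8.16 at P5, and 7.07, 7.61 and 7.68 at P10. Its postnatal arrays spread widely but lay below all E15.5 arrays. Rps6ka3 fell by 1.11 ± 0.26 at P5 and 1.36 ± 0.26 at P10 (limma adjusted p = 0.00997 and 0.00300). Rps6ka5, a related nuclear kinase, fell by 0.32 ± 0.087 and 0.37 ± 0.087, and its P5 call did not hold without P5 array 1 (limma adjusted p = 0.0598). Other RSK and MSK genes were not analysed here. In the ERK cascade and its feedback genes, of 19 measured, 6 were called lower and 4 higher at P5, and 8 lower and 4 higher at P10. Their median differences were -0.26 and -0.24. Among all genes, 17.7% were called lower and 17.9% higher at P5, and 18.6% and 20.1% at P10. The transcription factor gene Etv1 (-2.20 ± 0.12 at P10), the feedback inhibitor gene Spry2 (-1.73 ± 0.17) and the phosphatase gene Dusp4 (-0.98 ± 0.10) fell. Map2k2, which encodes a kinase that activates ERK, rose (1.42 ± 0.076).

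Other Fabp genes moved opposite to Fabp7 or did not pass. Fabp1, the liver form, rose by 1.43 ± 0.056 at P5 and 1.34 ± 0.056 at P10, Fabp2, the intestinal form, by 2.75 ± 0.14 and 2.69 ± 0.14, and Fabp5, the epidermal form, by 0.73 ± 0.050 and 0.60 ± 0.050 (limma adjusted p from 4.14e-07 to 2.23e-05 for these genes and stages). Fabp4, the form of fat cells and macrophages, had 7.34, 7.04 and 7.43 at E15.5, 9.79, 9.56 and 9.74 at P5, and 8.66, 8.49 and 9.38 at P10. Its E15.5 arrays lay below all others, and it rose by 2.43 ± 0.22 and 1.57 ± 0.22 (limma adjusted p = 4.55e-05 and 0.000451). Fabp3, Fabp6, Fabp9 and Pmp2, the form of myelin, differed by -0.15 to 0.19 and did not pass, except that Pmp2 at both stages and Fabp6 at P10 passed as higher after median centring (limma adjusted p from 0.0359 to 0.0455). Fabp12 rose at P5 (0.84 ± 0.16), and its P10 call (0.48) did not hold without E15.5 array 1 or 2, P5 array 1 or any 1 of the P10 arrays (limma adjusted p from 0.0568 to 0.139). No other measured Fabp gene was called lower than at E15.5.

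The carriers of retinoids, of the same protein family, moved in different directions. Crabp1 had a mean log2 signal of 9.47 ± 0.75 (SD, n = 3) at E15.5, where array 3 was the lowest at 8.62, and its arrays gave 6.82, 6.69 and 6.49 at P5 and 6.62, 6.78 and 6.80 at P10. The spread was widest at E15.5, and all E15.5 arrays were above the postnatal ones. Crabp1 fell by 2.81 ± 0.31 and 2.74 ± 0.31 (limma adjusted p = 0.000169 and 0.000148). Crabp2 differed by -1.04 ± 0.36 at P5 and did not pass (limma adjusted p = 0.0543), though it passed without E15.5 array 2 (-1.30, adjusted p = 0.0339) or P5 array 2 (-1.30, adjusted p = 0.0326), with a filter on dim genes (adjusted p = 0.0331) or with an intensity trend (adjusted p = 0.0377). At P10 it differed by -1.27 ± 0.36 (limma adjusted p = 0.0224) but did not pass without P10 array 1 or 2 (adjusted p = 0.0659 and 0.0631). Rbp2, a retinol carrier gene of the intestine, rose at P5 (1.86 ± 0.35, limma adjusted p = 0.00325) and differed by 0.95 ± 0.35 at P10 without passing (adjusted p = 0.0652, and from 0.00749 to 0.0494 under the 5 alternatives where it passed). Rbp7 differed by 0.32 ± 0.15 and 0.11 ± 0.15 and did not pass (limma adjusted p = 0.136 and 0.609). Of 13 fatty acid and retinoid binding genes measured, 1 was called lower and 6 higher at P5, and 2 lower and 5 higher at P10. Their median differences were 0.32 and 0.13. Among all genes, 17.7% were called lower and 17.9% higher at P5, and 18.6% and 20.1% at P10.

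**Figure D4:**
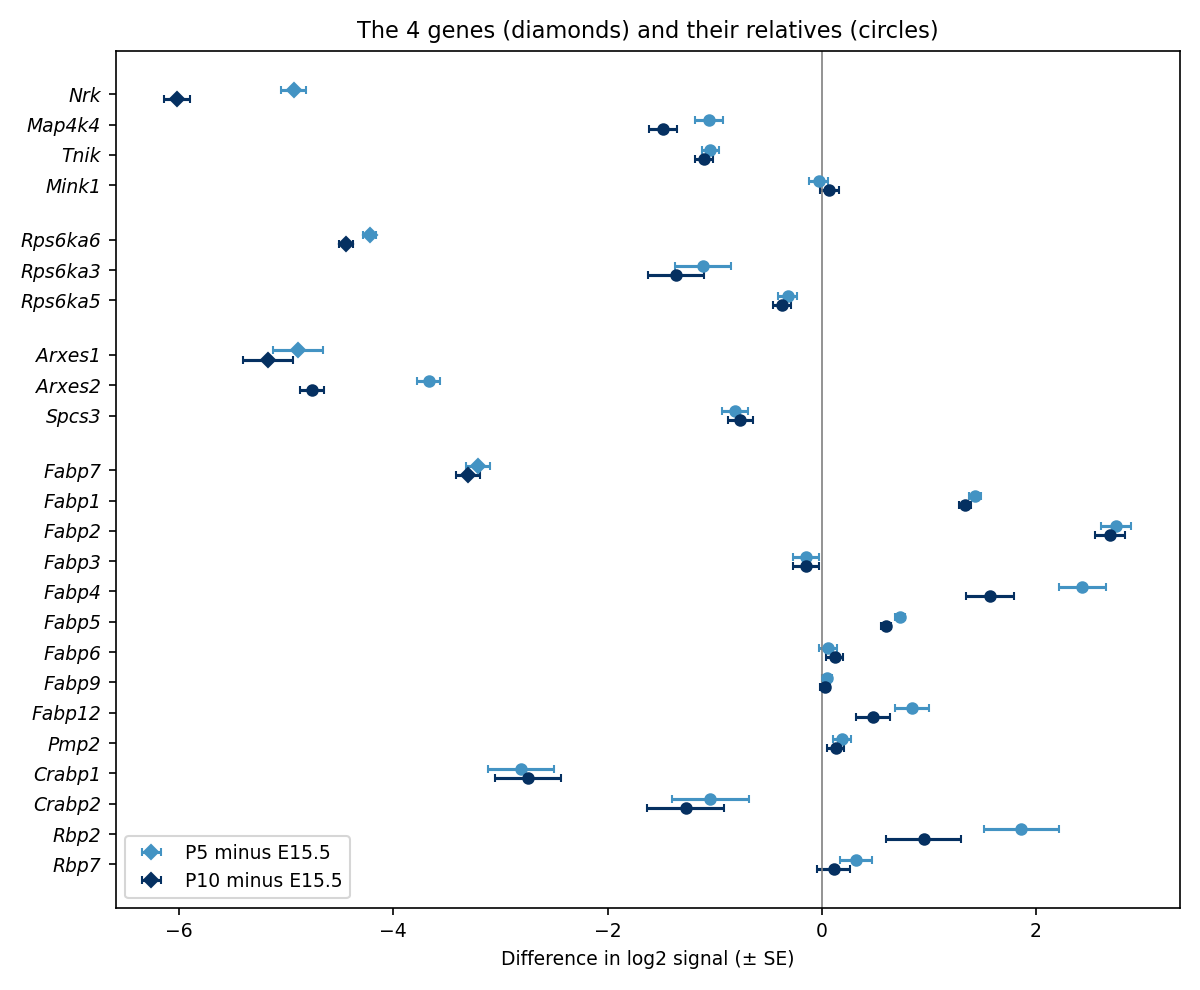
Difference in log2 signal from E15.5 (horizontal axis, ± SE of the limma model) at P5 (light blue) and P10 (dark blue) for the 4 genes (diamonds) and their relatives (circles). Nrk, Rps6ka6 and Arxes1 lie far left of their relatives other than Arxes2, and Fabp1, Fabp2, Fabp4 and Fabp5 lie on the side opposite to Fabp7.

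Fabp7 is known as a gene of glia and as a Notch target, and both gene groups were measured. Of 16 neural, glial and Schwann cell genes, 6 were called lower and 1 higher at P5, and 5 lower and 0 higher at P10, with medians of 0.04 and 0.03. Ncam1, a neural adhesion molecule gene, fell by 2.44 ± 0.12 at P10, and the neuronal genes Stmn2 and Dcx fell by 2.11 ± 0.36 and 1.23 ± 0.20. Sox10, a defining gene of Schwann cells, had mean log2 signals of 6.38, 6.64 and 6.52 in the order of age, and its call at P5 did not hold without any 1 of 7 arrays (limma adjusted p from 0.0504 to 0.121). The summed linear signal of this list ran from 1390 to 1680 at E15.5, 961 to 1010 at P5 and 878 to 967 at P10. Of 15 Notch pathway genes, 8 were called lower and 1 higher at P5, and 8 lower and 0 higher at P10, with medians of -0.48 and -0.56. The shares of all genes called lower were 17.7% and 18.6%, and those called higher 17.9% and 20.1%. Jag1, a Notch ligand gene, fell by 2.43 ± 0.15 and the receptor gene Notch2 by 2.07 ± 0.11 at P10.

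Markers of stromal cell types moved on the same arrays. Among all genes, 17.7% were called lower and 17.9% higher at P5, and 18.6% and 20.1% at P10. Of 26 hepatic stellate cell genes, 23 were called lower and 0 higher at both P5 and P10, with medians of -1.77 and -1.93. Their summed linear signal ran from 34600 to 39200 at E15.5, 8880 to 11900 at P5 and 7300 to 9650 at P10. Lrat fell by 2.44 ± 0.21 and 2.95 ± 0.21. Rspo3, a WNT amplifier gene on this list, fell, with differences of -3.41 ± 0.12 and -3.32 ± 0.12, beside -3.21 and -3.30 for Fabp7. Of 13 mesothelial genes, 2 were called lower and 8 higher at P5 and 7 lower and 2 higher at P10, so that list did not share the drop at P5. Of 13 portal fibroblast genes, 4 were called lower and 5 higher at P5, and 5 lower and 0 higher at P10. Of 17 endothelial genes, 1 was called lower and 4 higher at P5, and 1 lower and 0 higher at P10. Of 5 genes of cholangiocytes, the bile duct cells, 0 were called lower and 3 higher at P5, and 0 lower and 2 higher at P10. Of 13 blood cell genes, 4 were called lower and 1 higher at P5, and 4 lower and 0 higher at P10, and their summed linear signal ran from 1220 to 1910 at E15.5, 874 to 897 at P5 and 842 to 949 at P10. The platelet gene Pf4 fell by 2.72 ± 0.40 at P5 and the red cell gene Slc4a1 by 1.47 ± 0.25, while Ptprc differed by 0.06 ± 0.068 and did not pass (limma adjusted p = 0.548). Of 15 cell cycle genes, 11 were called lower and 0 higher at P5, and 4 lower and 2 higher at P10. Which of the sorted cells expressed the 4 genes, and the part of these markers in their decrease, were not tested.

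Nrk, Arxes1 and Rps6ka6 lie on the X chromosome, and Fabp7 lies on chromosome 10. Of all genes measured, 742, or 3.72%, lie on X. Among the 100 genes with the largest falls, 20 lie on X, these 3 included. Arxes2, Smarca1 and Lpar4 are others. Of the X-linked genes, 23.5% were called lower and 11.2% higher at P5, where all genes gave 17.7% and 17.9%. At P10, 24.1% were lower and 12% higher, where all genes gave 18.6% and 20.1%. The median difference of X-linked genes was close to 0 at both stages (-0.011 and -0.022). Arrays with and without the Y-linked signal were present at every stage. With the Y-linked signal as a term the differences from E15.5 were -4.91 and -6.02 for Nrk, -4.82 and -5.17 for Arxes1, -4.20 and -4.44 for Rps6ka6 and -3.20 and -3.30 for Fabp7 at P5 and P10. Xist was itself lower on the postnatal arrays without the Y-linked signal (7.81 to 8.75) than on E15.5 arrays 1 and 2 (10.51 and 10.64), and its part in these values was not tested.

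**Figure D5:**
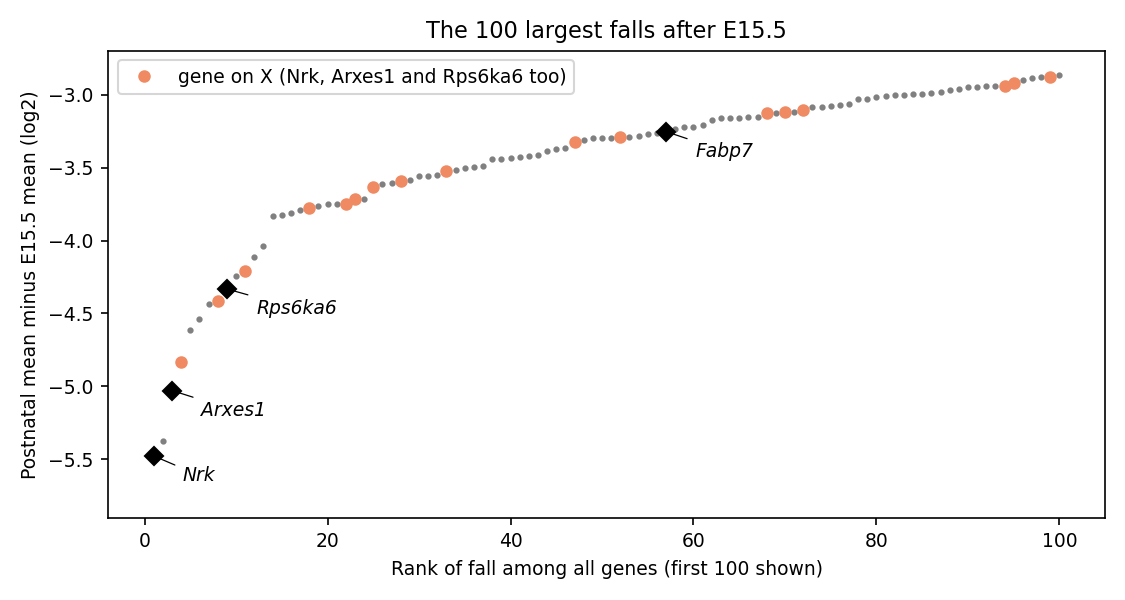
Postnatal mean minus E15.5 mean in log2 signal (vertical axis) for the 100 genes with the largest falls, in order (horizontal axis). Orange circles are genes on X, and black diamonds are the 4 genes, of which Nrk, Arxes1 and Rps6ka6 also lie on X. Nrk, Arxes1 and Rps6ka6 are at ranks 1, 3 and 9 and Fabp7 is at rank 57.

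Genes of similar profile were found by the root mean square difference of the log2 values over the 9 arrays, each gene centred on its own mean. This measure follows the same decrease that chose the 4 genes and is a description. Genes with predicted names were not considered. Nearest to Nrk were Smarca1 (0.395), Sema3a (0.409), Arxes1 (0.424), Lpar4 (0.522) and Asb4 (0.606), an imprinted gene. The likeness includes the step from P5 to P10, so no test of that step is given for these genes. The step was -1.09 for Smarca1 and -1.36 for Lpar4, as values. Nearest to Arxes1 were Sema3a (0.338), Asb4 (0.365), Nrk (0.424), Rps6ka6 (0.435) and Smarca1 (0.508). Nearest to Rps6ka6 was Asb4 (0.169), ahead of the adhesion receptor gene Adgrl3 (0.289), Fndc3c1 (0.304), the desaturase gene Scd2 (0.334) and the lipid kinase gene Pip4k2a (0.368). Fabp7 had close neighbours in the lipid kinase gene Dgkk (0.179), the BMP ligand gene Bmp5 (0.179), Aff2 (0.182), the connexin gene Gjc1 (0.183) and Neto1 (0.217). Among the 4 genes the profiles of Nrk and Arxes1 were most alike (0.424), and those of Nrk and Fabp7 least alike (1.13).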

How the data were processed

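Expression arrays from Affymetrix measured 9 samples, with 3 per stage. Trizol was used to extract the RNA and biotin to label the cRNA, per the labels' protocols. The authors deposited log2 signals, made with RMA (robust multi-array averaging) per the submitters' processing notes, and these notes list Transcriptome Analysis Console 2.0 and the Expression Console. No source used here gives the genome build of the probes, so no coordinates of probes are printed. RefSeq (GRCm38.p6) served for names, chromosomes, gene order and promoter windows, and the coordinates of the windows are on that build.

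Of 35556 probe sets, 21789 have 1 gene symbol, and of several for 1 gene the one of highest mean signal was kept, which left 19938 genes. limma 3.58.1 (R 4.3.3) fitted a model of stage alone to the 9 arrays. Its 2-sided moderated tests received Benjamini-Hochberg adjustment across the 19938 genes, with calls at an adjusted p under 0.05. The fit was run on simulated data with shifts set in advance, which checks the code and not the calls made here. Errors of differences are standard errors of the model. The summed linear signal of a list is the sum of 2 to the power of its log2 signals on an array. Arrays with the same number in different stages were not alike (r of residuals -0.079 to 0.069 over 9 pairs), so they were not paired.

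The 4 genes, the gene lists and the rule for naming genes were chosen with earlier results of these data known. The rule names the 4 genes, measured genes of the lists of relatives, up to 4 called members of each other list with the smallest adjusted p at P10 against E15.5 and up to 2 that went the other way, defining markers, the 5 genes nearest in profile to each of the 4, and their neighbours in the order of fall. Alternatives were quantile normalisation, median centring, a filter at percentile 30, the mean of probe sets, limma with an intensity trend, the replicate number as a block, the Y-linked signal as a term, only arrays without it, and leaving out each array. Probe sets with several symbols or none were left out. Genes with predicted names (Gm, Rik, LOC, BC or accession-like names) were left out of the nearest profiles and of the chromosome neighbours.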

Additional observations from a re-analysis of the deposited data

How the results depend on the processing

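The 4 genes lay below E15.5 at P5 and P10 under every alternative run. After quantile normalisation Nrk differed from E15.5 by -5.17 at P5 and -6.24 at P10 and Rps6ka6 by -4.38 and -4.58, and after median centring Rps6ka6 differed by -4.35 at P10. On the 5 arrays without the Y-linked signal Fabp7 differed by -3.01 at P5, and the P10 minus P5 step of Nrk was -1.25 and did not pass. There 19 genes were called between P10 and P5, against 1126 on all arrays, in a fit with 4 fewer arrays and 1 at P5. Leaving out 1 array gave 586 to 1385 calls for P10 minus P5, with 586 without P10 array 2, 730 without P10 array 3 and 747 without P5 array 2. In these fits the step of Nrk ran from -1.23 to -1.01 and passed each time, that of Arxes1 ran from -0.54 to -0.15, that of Rps6ka6 from -0.27 to -0.19 and that of Fabp7 from -0.18 to 0.00, and these did not pass. With the replicate number as a block the step of Nrk was -1.09 (limma adjusted p = 0.0115), and calls went from 7089 to 6886 at P5 and from 7716 to 7440 at P10, each against E15.5, and from 1126 to 893 between P5 and P10, and the block changed no call of the 4 genes. Median centring placed the median of all genes at 0.120 for P10 against E15.5 and moved the share of lower calls from 48.2% to 34.4% there, and from 51.2% to 36.5% for P10 minus P5. On these 5 arrays the following did not pass (limma adjusted p from 0.051 to 0.165), though most differences stayed about as large, and with 1 array at P5 the lost calls say little. At P5 they included Spcs1 (-0.25), Spcs2 (-0.48), Map2k4 (0.41), Map3k1 (-0.54), Jun (-0.92), Rps6ka5 (-0.28), Zfp423 (-1.15) and Stmn2 (-2.31). Pf4 (-2.72), Sox10 (0.26) and Cxcl12 (-0.5) were others at P5. At P10 they were Spcs1 (-0.30), Spcs2 (-0.50), Map3k1 (-0.60), Rps6ka5 (-0.25), Crabp2 (-1.39) and Stmn2 (-2.18). Over other named genes, 6240 of the values under alternatives kept their side of the threshold, 222 lost it, 42 gained it and none reversed. With Pearson r in place of the root mean square difference, 0, 0, 2 and 1 of the 5 nearest genes of Nrk, Arxes1, Rps6ka6 and Fabp7 were shared. With no detection calls, signals near the bottom of the scale limit how large a fall can be seen.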

Other observations

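Genes that lie near the 4 on their chromosomes were called in both directions. The 24 nearest measured genes were taken, 3 on each side, with genes of predicted names left out. Of these, 6 were called lower and 5 higher at P5 than at E15.5 (limma, adjusted over all genes), and 8 lower and 6 higher at P10. Among all genes, 17.7% were called lower and 17.9% higher at P5, and 18.6% and 20.1% at P10. The neighbours called lower at both stages include Arxes2. The genes named here were picked after their values were seen. Serpina7, the gene of the thyroxine carrier of plasma, lies next to Nrk among these genes and was higher by 3.63 at P5 and by 1.92 at P10. Hdx and Tex16, on one side of Rps6ka6, differed by -1.12 and -2.06 on the log2 scale at P5, while Apool, the third of these genes on that side, was higher by 1.35. Bex2 and Bex4, on the far side of Arxes1 from Arxes2, differed by -0.11 and 0.00 at P5 and by -1.70 and -0.90 at P10. Beside Fabp7, Smpdl3a was higher by 1.47 and Serinc1 differed by -1.10 at P5.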
